A study of Mus musculus with 6 samples.

Results

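The T cell receptor alpha locus of the mouse was examined through its V segments (Trav) and J segments (Traj), taken as the 188 genes of the table whose symbol starts with Trav or Traj, out of 48709 genes in all. They comprised 128 Trav segments, of which 10 carry a double name because they can also join the delta chain (Trav-dv), and 60 Traj segments. Annotation classed 20 of the Trav and 9 of the Traj as pseudogenes. RNA was sequenced from natural killer T cells sorted from the spleen of mice in the resting state. There were 3 samples labelled WT and 3 labelled Gpx4 cKO, a conditional knockout of Gpx4, the selenoenzyme that reduces lipid peroxides. The Cre driver, the strain and the age were not given in the labels used here, nor was it stated whether the samples came from separate animals. The 6 libraries of the table are numbered 18 to 23, and none of these names occurred in a label, so no library was given a genotype and WT was not compared with Gpx4 cKO. Each library is instead reported by its own value, with the range and median over libraries.

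The alpha chain gene of a T cell is assembled in the thymus by joining a Trav segment to a Traj segment, with the DNA between them removed, and the joined exon is then spliced to the constant region Trac. Most T cells each carry a different joint, whereas invariant natural killer T (iNKT) cells share an almost fixed alpha chain that joins Trav11 to Traj18 and recognises glycolipids presented by CD1d. The shares of Trav reads on Trav11 and of Traj reads on Traj18 are the readouts of that chain used here. Reads across the joint itself were not counted here.

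Of the Trav11 family, Trav11 itself held every exon read, and the sequences of the family are shown first because its copies are close to identical. Trav11 (ENSMUSG00000096615) has 2 exons of 52 and 291 bases at chr14:53519303-53519354 and chr14:53519569-53519859. Its pseudogene Trav11n (ENSMUSG00000106259) has exons at chr14:53135122-53135173 and chr14:53135388-53135678. Traj18 (ENSMUSG00000076911) is a single exon of 66 bases at chr14:54200777-54200842. All lie on the plus strand of GRCm38, and the sequences are from the GENCODE M21 transcripts of that build, in which all 188 segments had the same start and end as in the table. The 2 Trav11 copies are shown to compare them with capitals at the bases where they differ, and Traj18 because it forms the other side of the invariant joint.
Trav11 exon 1: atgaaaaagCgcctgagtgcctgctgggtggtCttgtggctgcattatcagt
Trav11n exon 1: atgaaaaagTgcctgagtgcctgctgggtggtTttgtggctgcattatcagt
Trav11 exon 2: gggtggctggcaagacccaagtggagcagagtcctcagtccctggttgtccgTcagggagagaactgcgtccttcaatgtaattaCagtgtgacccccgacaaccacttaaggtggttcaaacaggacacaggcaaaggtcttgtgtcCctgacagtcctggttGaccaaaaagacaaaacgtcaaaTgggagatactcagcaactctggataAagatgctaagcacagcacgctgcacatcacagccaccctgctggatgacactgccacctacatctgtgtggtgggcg
Trav11n exon 2: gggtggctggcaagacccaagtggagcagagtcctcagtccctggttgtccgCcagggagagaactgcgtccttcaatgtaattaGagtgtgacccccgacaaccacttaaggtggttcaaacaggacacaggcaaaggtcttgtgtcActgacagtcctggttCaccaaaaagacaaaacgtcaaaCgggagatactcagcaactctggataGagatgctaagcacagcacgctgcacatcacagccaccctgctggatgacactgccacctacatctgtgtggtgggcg
Traj18: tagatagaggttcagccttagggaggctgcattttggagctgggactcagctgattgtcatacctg
Trav11n differed from Trav11 at 8 of 343 bases (97.7% identity), as C10T, C33T, T105C, C138G, C201A, G217C, T240C and A266G, with the Trav11 base first and positions counted from 1 at the first base of the transcript. The change C138G lies in a codon that starts at base 136 and reads TAC in Trav11 and TAG, a stop codon, in Trav11n. The third copy, Trav11d (ENSMUSG00000095088, chr14:52824357-52824912), had 0 differing bases from Trav11 over all 342 bases of its transcript. Trav11d starts 695 kb before Trav11.

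Total exon reads per library ranged from 903524 (library 21) to 10122187 (library 19), and these limit what can be said of single segments. The Trav segments held 61 to 1081 reads per library and 3288 in all, and the Traj segments held 0 to 14 per library and 32 in all. Genes that mark CD8 and NK cells and the B cell surface were low, whereas immunoglobulin RNA was not. Cd8a and Cd8b1 of CD8 T cells summed to 0 to 2.95 CPM (exon reads scaled to a library of 1000000 reads). Of the B cell genes, Cd79a ranged from 3.30 to 12.7 CPM, Cd79b from 1.05 to 18.3 CPM and Ms4a1 from 5.74 to 20.4 CPM. Igkc, the constant region of the kappa light chain made by B and plasma cells, was lowest in library 18 (605 CPM) and highest in library 23 (4505 CPM). The V segments of the immunoglobulin loci (Ighv, Igkv, Iglv) had the same lowest and highest libraries, with sums of 393 and 2477 CPM and a median of 2058 CPM, against a median of 103 CPM for all Trav segments. Of these V segments Igkv12-44 (3008 exon reads), Igkv4-59 (2933) and Igkv1-117 (2525) each had more reads than Trav11. Ighm, a heavy chain constant region, had a different order, lowest in library 19 (225 CPM) and highest in library 20 (802 CPM). It stood at 339 CPM in library 18 and 696 CPM in library 23. These immunoglobulin genes were added after their values were seen, and their part in the Trav values was not tested. The NK cell genes Ncr1 and Eomes summed to 1.45 to 9.65 CPM. Treg genes summed to 191 to 323 CPM, of which Ikzf2 made 180.3 to 312 CPM and the defining gene Foxp3 6.63 to 12.1 CPM. The gamma-delta list summed to 202 to 251 CPM, nearly all of it on the Tcrg-C constant regions, while Trdc, the constant region of the delta chain, stood at 2.89 to 7.25 CPM. All 6 genes of the iNKT list were detected in every library, at levels that differed widely between genes. Zbtb16, which encodes their lineage transcription factor, ranged from 245 to 357 CPM, and Cxcr6, a chemokine receptor of these cells, from 783 to 1439 CPM. Slamf6 and Slamf1, receptors that act in iNKT cell selection, ranged from 141 to 247 CPM and from 63.3 to 88.1 CPM. Sh2d1a, their adaptor, ranged from 38.6 to 68.8 CPM, and Klrb1c, which encodes an NK receptor, from 40.1 to 79.1 CPM.

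Trav11, the V segment of the invariant chain, was the main Trav segment of every library. Its exon reads in libraries 18 to 23 were 615, 829, 402, 41, 442 and 99. As shares of all Trav reads these were 71.5%, 76.7%, 70.4%, 67.2%, 75.6% and 76.2%, with a median of 73.5%. The 95% Wilson intervals, which like all intervals here cover counting error only, were narrowest in library 19 (74.1% to 79.1%) and widest in library 21 (54.7% to 77.7%). Libraries 19 and 20 had intervals that did not overlap (66.5% to 74.0% in library 20), and library 21, with 61 Trav reads, overlapped all others. A chi-square test of Trav11 against the other Trav reads over the 6 libraries gave p = 0.0226 (0.0452 adjusted over this test and the same test of Traj18), and Fisher's exact test gave p = 0.0220. The difference rested on the 76.7% of library 19 and the 70.4% of library 20. Fisher's exact test gave p = 0.184 without the first and p = 0.0610 without the second.

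**Figure D1:**
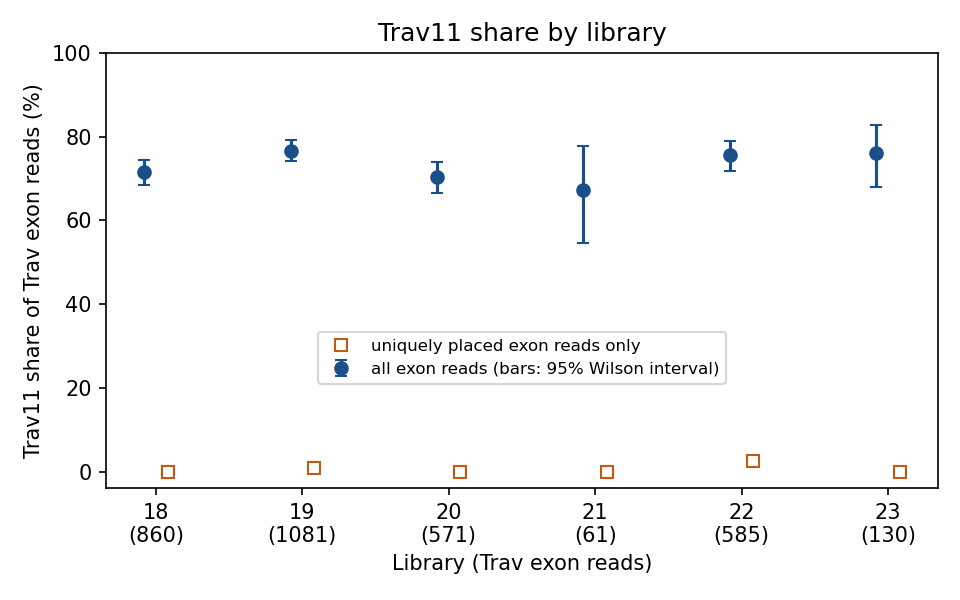
Share of Trav exon reads on Trav11 (y axis, percent) in each library (x axis, with its number of Trav reads). Filled circles use all exon reads, with 95% Wilson intervals, and lie between 67.2% and 76.7%. Open squares use only reads placed at 1 locus and lie between 0 and 2.56%.

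Nearly all of the Trav11 signal came from reads that fit more than 1 place. Of its 2428 exon reads, 3 were counted as unique, which is 0.124% (Wilson interval 0.0420% to 0.363%), and these were 1 read in library 19 and 2 in library 22. Its intron reads showed the same, with 3 unique of 2679. Trac, the constant region that follows every joint, was unique in all of its 15342 exon reads. Trav11d held 0 exon reads, so the table placed the reads of this identical pair on Trav11 alone, and the value printed for Trav11 is that of Trav11 and Trav11d together. Where only unique reads were counted, the Trav11 share of the Trav reads fell to 0, 0.763%, 0, 0, 2.56% and 0 in libraries 18 to 23. Trav11n held 0 exon reads and 5 intron reads, all of them unique, 3 in library 18 and 2 in library 19. Of the 9042 genes with at least 200 exon reads, 29 had under 1% unique reads, and the median gene had 100%.

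Measured against the whole library, Trav11 stood at 74.1, 78.1, 73.1, 49.5, 81.6 and 52.2 CPM in libraries 18 to 23, scaled to library sizes with TMM factors. The 2 shallowest libraries, 21 and 23, were lowest, and no other library was below 73.1 CPM. Trav11 was the 1 segment of the 188 with the 200 reads needed for a test across all genes, and it differed between libraries beyond counting error (chi-square of counts against library sizes, adjusted p = 0.000318). Of all 9042 genes tested, 6473 (71.6%) also did so, so a difference between libraries was the usual case. Trav6-3, the next most read segment, came in when 60 reads were enough and did not pass (adjusted p = 0.114). In bulk RNA, fewer cells that carry a segment and less of its RNA per cell cannot be told apart.

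Trac and the CD3 genes, whose products form the receptor at the cell surface with the alpha chain, give a scale for these values. Trac stood at 481, 469, 435, 439, 528 and 398 CPM in libraries 18 to 23. Per 100 Trac exon reads there were 15.4, 16.6, 16.8, 11.3, 15.4 and 13.1 Trav11 reads. Libraries 21 and 23 were again lowest on this scale. The other Trav segments together gave 6.14, 5.06, 7.06, 5.49, 4.99 and 4.11 reads per 100 Trac reads, where library 23 was lowest and library 21 lay inside the range. Per kilobase of exon, over the 6 libraries, Trav11 held 7079 reads and Trac 16409. Of the receptor complex list (Trac, Cd3d, Cd3e, Cd3g, Cd247, Ptcra), 5 of 6 had enough reads and all 5 differed between libraries, beside 71.6% of all genes. Ptcra, the surrogate alpha chain of immature thymocytes, had 12 reads. Rag1 and Rag2, the recombinase that makes the joints, had 6 and 4 reads, and Dntt, which adds bases at them, had 5.

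Outside Trav11 the Trav reads were thinly spread over many segments. The 860 other reads fell on 92 segments, and 35 of the 128 Trav had no exon read, of which 9 have no exon length in the table and so could hold none. Of the 93 segments read, 66 had under 10 reads, 26 were read in a single library, and Trav11 and Trav14d-2 were the 2 read in all 6. The number of Trav segments with a read was 61, 63, 49, 11, 43 and 18 in libraries 18 to 23, so the shallower libraries showed fewer segments. Trav6-3 led with 92 reads (24, 39, 16, 1, 12 and 0 in libraries 18 to 23), a share of 0 to 3.61% of the Trav reads. Trav6-5 followed with 51 reads (8, 28, 6, 0, 7 and 2) and Trav16n with 50 (15, 19, 6, 0, 8 and 2). In reads not scaled for depth, library 19, the deepest, was highest for all 3 of these segments. None of them had more than 2 reads in libraries 21 and 23, the shallowest. As a share of Trav reads, Trav16n was nearly the same in library 18 (1.74%) and library 19 (1.76%). Trav6n-6 and Trav3n-3 had 31 reads each. The remaining segments of the 12 most read were Trav14n-2 with 25 reads, Trav10 with 24, Trav15d-1-dv6d-1 with 23, Trav13d-3 and Trav14d-2 with 22 each, and Trav8-1 with 18. Together the 11 segments after Trav11 made 45.2% of the other Trav reads. Per kilobase of exon Trav6-3 held 229 reads, against the 7079 of Trav11. The double-named dv segments were all read, with 85 reads among the 10, or 2.59% of the Trav reads. Of the 20 Trav pseudogenes, which include all 9 Trav segments with no exon length, 2 were read. They were Trav13-3 with 7 reads, all in library 18, and Trav4d-2 with 1. Trav1, whose joint to Traj33 is the alpha chain of mucosal-associated invariant T cells, had 3 reads, 1 each in libraries 19, 20 and 22. Traj33 had none of the 32 Traj reads, which allows a share of up to 9.38%.

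**Figure D2:**
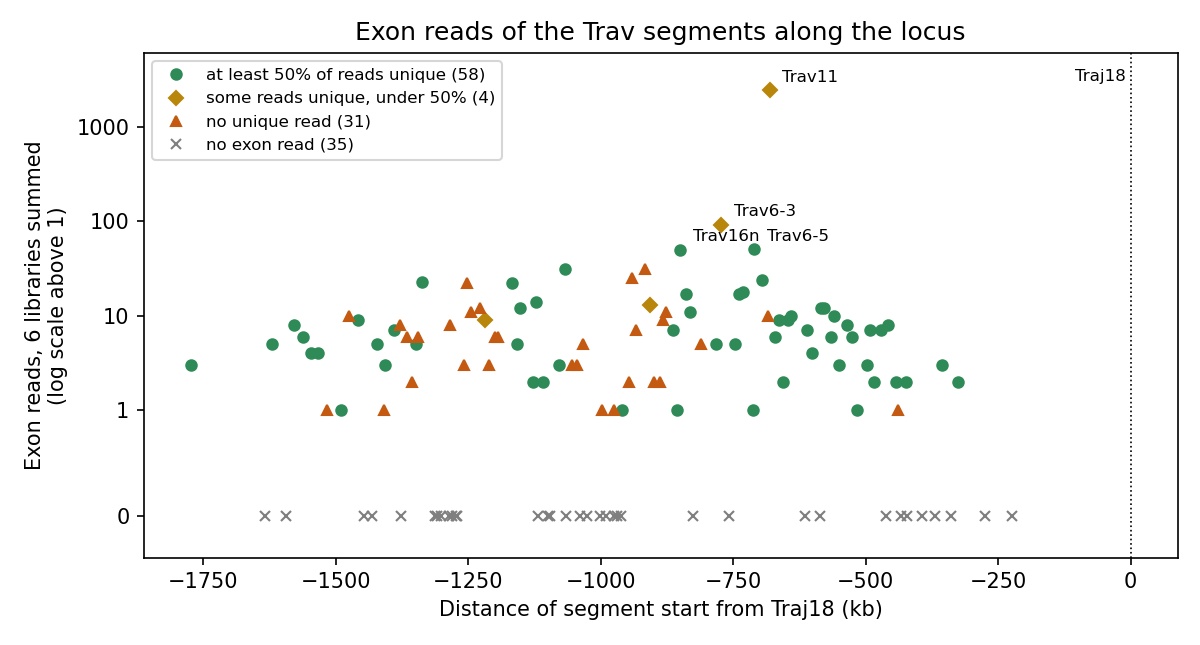
Exon reads of the 128 Trav segments over the 6 libraries (y axis, log scale above 1) by the distance of each segment's start from Traj18 in kb (x axis). Colour and shape give the part of a segment's reads that was unique. Trav11 stands at 2428 reads, 681 kb before Traj18, the next segment, Trav6-3, has 92, and 35 segments have no read.

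By family, Trav6 was the largest after Trav11, with 242 reads on 13 of its 15 segments. Trav14 had 103 reads on all 9 of its segments, Trav13 had 75, Trav16 had 70 and Trav7 had 66. The families Trav3, Trav15, Trav12, Trav9, Trav10 and Trav8 had 58 to 29 reads. Trav5 had 19 reads, Trav4 had 16, Trav1 and Trav19 had 3 each and Trav21 had 2, while Trav2, Trav17, Trav18, Trav20, Trav22 and Trav23, each a single segment, had none. In the 4 deeper libraries, with 143 to 252 reads outside Trav11, Trav6 made 20.0% to 34.5% of those reads and Trav14 7.14% to 16.1%. The 2 shallow libraries were each dominated by 1 family. In library 23 the Trav6 family had 19 of the 31 reads outside Trav11 (61.3%, Wilson interval 43.8% to 76.3%), against 223 of 829 in the other libraries (26.9%, 24% to 30%). In library 21 the Trav14 family had 12 of 20 (60%, 38.7% to 78.1%), against 91 of 840 elsewhere (10.8%, 8.91% to 13.1%). The families were singled out after their values were seen. So were the segments named next, which carried these reads. In library 23, Trav6d-3 had 8 of its 10 reads and Trav6-3 had 0. None of the 10 reads of Trav6d-3 was unique, and 20 of the 92 of Trav6-3 were, so which of the 2 a read belongs to is uncertain. In library 21, Trav14d-3-dv8 had 5 reads, Trav14d-1 had 4, Trav14n-1 had 2 and Trav14d-2 had 1. Of these segments Trav14d-3-dv8 alone had unique reads, 12 of its 14 over all libraries.

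**Figure D3:**
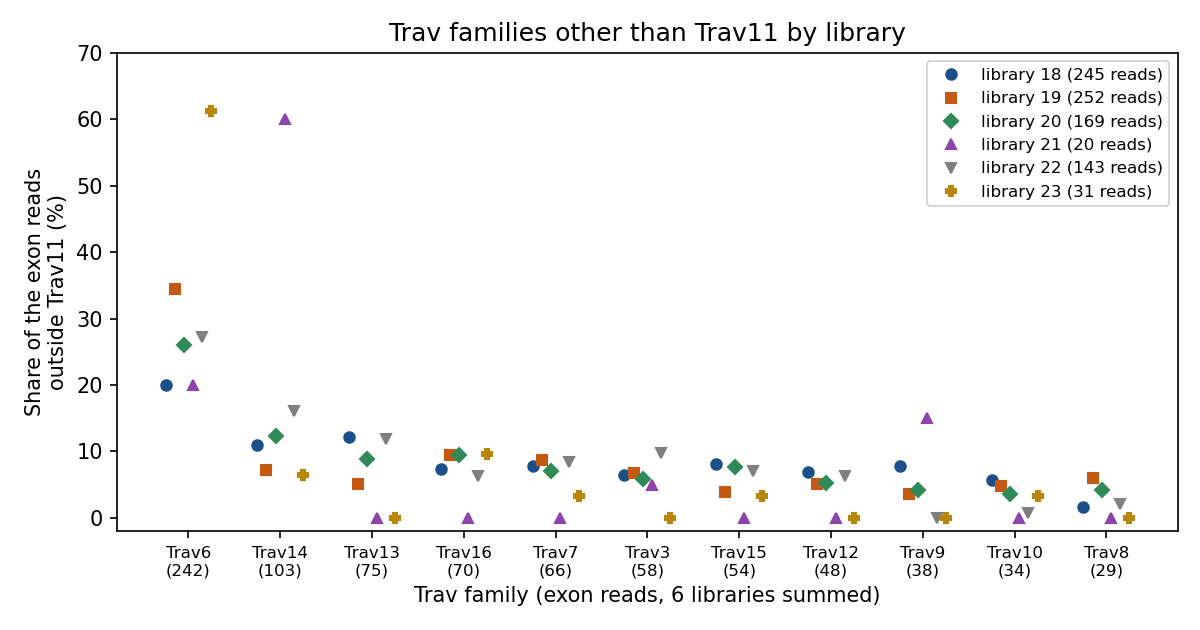
Share of the exon reads outside Trav11 (y axis, percent) that fell on each of the 11 most read other Trav families (x axis, with reads), 1 symbol per library. Trav6 in library 23 (61.3%) and Trav14 in library 21 (60%) stand above the other libraries, which hold 20.0% to 34.5% and 6.45% to 16.1%.

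Many of these segments exist in near-identical copies, since part of the mouse locus has been duplicated and its copies are marked by the letters d and n in the symbols. There were 55 segments with no letter, Trav11 among them, and they held 400 reads when those of Trav11 were left out. Segments with d held 222 reads over 39 and those with n 238 over 34. Reads were more often unique in segments that shared less sequence, though not segment by segment. Segments were sorted by how many of the 75-base stretches of their transcript occur in another Trav transcript, 75 being a chosen length since the read length was not given in the sources used here. The 26 read segments other than Trav11 in which every stretch was shared had 199 reads, none of them unique. The 57 in which some were shared had 599 reads, of which 69.6% were unique, and the 9 with none shared had 62 reads, all unique. Trav6-3 shared 86.0% of its stretches and had 20 unique reads of 92, whereas Trav10 (44.9%) had 24 of 24. Other segments went the opposite way, such as Trav7n-6 with 29% shared and 0 unique reads of 11, and Trav13d-1 with 74.5% shared and 5 of 5.

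For 17 pairs of segments with reads, 1 transcript lay whole within the other, and the table did not treat all pairs alike. In 13 of them both copies held reads, such as Trav14d-2 with 22 and Trav14n-2 with 25, or Trav3d-3 with 12 and Trav3n-3 with 31. In the other 4 pairs all reads were on 1 copy, and Trav11 with 2428 against 0 on Trav11d was by far the deepest. Trav15d-1-dv6d-1 had 23 reads and Trav15n-1 had 0, and there 17 of the 23 were unique. Its transcript was the longer, at 418 against 352 bases. The last 2 pairs, Trav12d-3 with Trav12n-3 and Trav9d-2 with Trav9n-2, held 1 read each. Where neither copy of a pair has a unique read, as in Trav14d-2 with Trav14n-2 and Trav14d-1 with Trav14n-1, the count of each copy is uncertain and the sum is the safer value.

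Along the chromosome, the Trav segments before Trav11 carried most of the other Trav reads. The 92 segments upstream of it had 718 reads, or 83.5% of the reads outside Trav11 (79.3% to 90.3% over the libraries), and the 35 between it and the Traj segments had 142. Per kilobase of exon this was 21.8 reads upstream and 11.6 downstream. With unique reads alone, a count added after seeing the data, it was 10.4 upstream and 11.2 downstream. The read segments other than Trav11 in which every 75-base stretch was shared lie upstream and held no unique read. Their exon bases stay in this rate, so it cannot decide whether the excess upstream holds. Uniqueness differed along the same line. Unique reads made 47.6% of the upstream reads (Wilson interval 44.0% to 51.3%) and 96.5% of the downstream ones (92.0% to 98.5%).

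Traj18, the J segment of the invariant chain, led the Traj reads, at a depth that allows little more. Its reads in libraries 18 to 23 were 2 of 3, 8 of 14, 2 of 5, 0 of 0, 9 of 9 and 0 of 1. Over all libraries this was 21 of 32 Traj reads, or 65.6% (Wilson interval 48.3% to 79.6%), and every Traj read was unique. The shares were 66.7%, 57.1%, 40.0%, 100% and 0 in the 5 libraries with a Traj read, with a median of 57.1%, and the intervals of single libraries were as wide as 0 to 79.3% (library 23). Traj exons are short, at 55 to 66 bases, and 9 of the 60 have no exon length in the table. Traj18 had 0 reads across an exon junction. How reads across the joint or its splice to Trac were counted is not given. The Traj counts are therefore no measure of how much joined RNA was present. Per kilobase of exon Traj18 held 318 reads, more than the 229 of Trav6-3 and fewer than the 7079 of Trav11. Its exon has 66 bases, against 401 in Trav6-3 and 343 in Trav11, so these rates do not compare amounts of RNA. Traj18 against the other Traj reads gave p = 0.0323 by Fisher's exact test, which was added after the data were seen because expected counts went down to 0.344, and p = 0.0741 by the planned chi-square test. Without library 22, in which all 9 Traj reads were on Traj18, Fisher's exact test gave p = 0.772.

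The other 11 Traj reads fell on 7 segments. Traj15 had 3 reads, Traj7 had 2 and Traj2 had 1, all in library 19, and these were the whole count on the 16 segments downstream of Traj18, between it and Trac. They made 6 of the 14 Traj reads of library 19 (42.9%, 21.4% to 67.4%) and 18.8% of all Traj reads. Upstream of Traj18, 5 reads lay on 4 of 43 segments, with Traj34 at 2 and Traj23 at 1 in library 20, Traj27 at 1 in library 18 and Traj28 at 1 in library 23. The median over libraries of the downstream share was 0, and in library 22 none of 9 reads was downstream, which allows up to 33.3%. Traj19 and Traj17, the segments next to Traj18 on either side, had 0 reads, as did 52 of the 60 Traj segments in all.

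**Figure D4:**
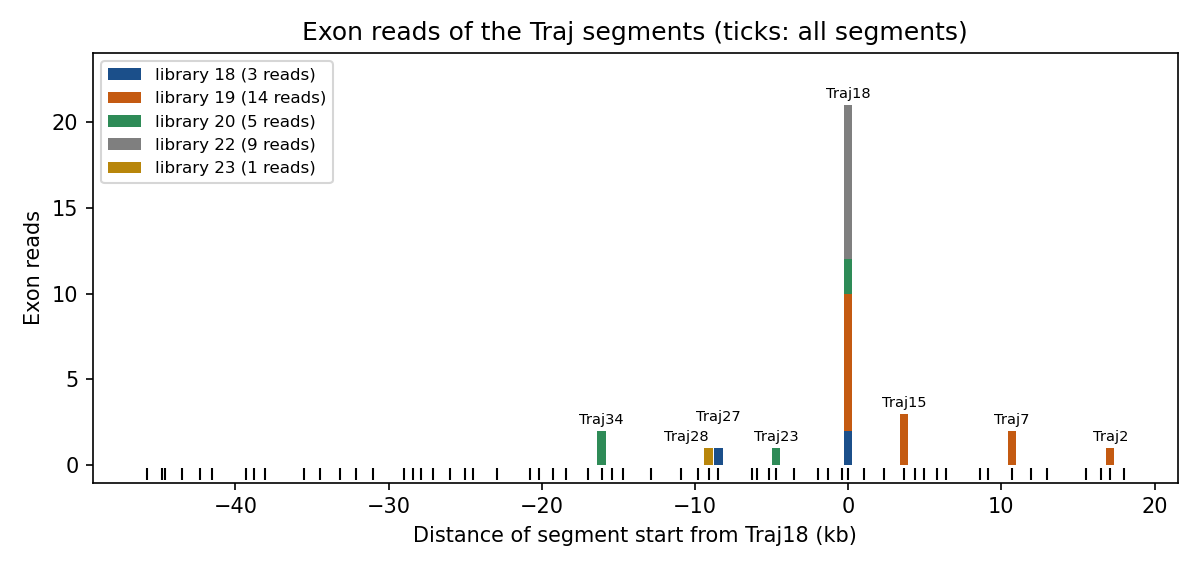
Exon reads of the Traj segments (y axis) by distance of the segment start from Traj18 in kb (x axis), stacked by library, with ticks for all 60 segments. Traj18 holds 21 of the 32 reads, and the reads to its right are all from library 19.

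Trav11 stood high among V segments in the share of its reads that lay on the intron between its exons, which is 214 bases long. Over all libraries it had 2679 intron reads and 2428 exon reads, so 52.5% of its reads were intronic (Wilson interval 51.1% to 53.8%). In libraries 18 to 23 the share was 59.4%, 49.1%, 53.4%, 56.4%, 48.2% and 34.9%, with library 23 lowest and its interval (27.8% to 42.7%) below those of all the others. Trac had 8.03% intronic reads, between 5.95% and 9.80% over the libraries. The 860 exon reads of the other Trav were joined by 510 intron reads, or 37.2%. Among 149 V segments of all antigen receptor loci with at least 50 reads, the median was 18.4%, and 8 segments lay above Trav11, of which 3 were Ighv and 5 Igkv segments of B cell receptors.

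The intron share of Trav11 differed between libraries beyond counting error (chi-square, adjusted p = 2.89e-11 over 7237 genes), and so did that of 5406 genes (74.7%). The median of all 7237 genes tested was 46.1%, and 2889 of the 7237 had a higher share than Trav11. Per kilobase Trav11 held 12519 intron reads and 7079 exon reads. The model of Trav11 has no untranslated bases, so that reads before its start codon are not counted on its exons. Other Trav with no such annotation had 51.5% intron reads (58 segments) and those with it 33.2% (69 segments). These are pooled values, on 146 and 714 exon reads. The 58 segments include all 20 Trav pseudogenes, of which 9 have no exon length and can add intron reads only. Whether the model bears on the intron share of Trav11 was not tested. Spliced RNA was also present, since 1428 of the 2428 exon reads (58.8%) crossed an exon junction. That share was 57.4%, 58.1%, 57.5%, 78.0%, 60.9% and 61.6% in libraries 18 to 23, where the 78.0% of library 21 rested on 32 of 41 reads. It was 43.0% for Trac and 37.8% for the other Trav.

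**Figure D5:**
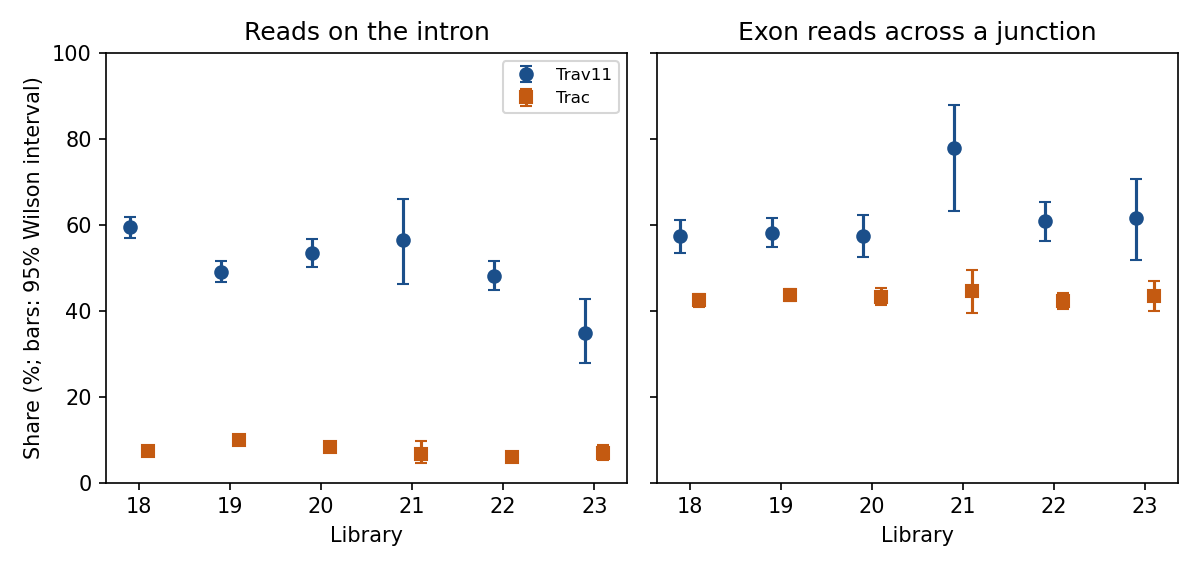
Left, share of a gene's exon and intron reads that lay on introns, and right, share of its exon reads that crossed an exon junction (y axes, percent, with 95% Wilson intervals), for Trav11 and Trac in each library (x axes). The intron share of Trav11 is 34.9% to 59.4% and that of Trac 5.95% to 9.80%, and Trav11 lies above Trac in both panels in every library.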

How the data were processed

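RNA of 6 sorted natural killer T cell samples was analysed from 1 deposited table with a row per gene and library. Per the file headers, it holds whole read counts that the authors did not normalize (total and unique exon reads, exon-exon reads and intron reads) with exon and gene lengths. Per the labels' protocols, RNA came from a NucleoSpin kit and libraries from a QIAseq UPXome kit. The submitters' processing notes name the builds GRCm38 and mm10. Which aligner, annotation release, strand setting and rule for multiply placed reads were used is not given in the sources used here. The other 9 columns of values per library were not used.

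Library sizes were scaled with TMM factors (edgeR 4.0.16 under R 4.3.3, 9510 genes). Genes with at least 200 exon reads over the 6 libraries were tested with a chi-square test, 5 degrees of freedom, and Benjamini-Hochberg adjustment over all of them at 0.05. The intron test used exon and intron reads together, with at least 200 reads and expected counts of at least 5. They measure counting error and not a spread between animals. Intervals are at 95%, and the limit for a count of 0 is 3 reads. Reads without molecular identifiers are not independent molecules.

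Named segments were Trav11, Trav11d, Traj18, the 12 most read Trav and Traj, Traj19 and Traj17, Trav1 and Traj33, and the listed genes. These members and lists were chosen with earlier results of these data known. Itgam of the myeloid list was not analysed here, and 1 gene of the B cell list is not reported here. The other myeloid genes (Lyz2, Cd68, Csf1r) summed to 4.14 to 6.33 CPM, and all 6 genes of the iNKT list differed between libraries, beside 71.6% of all genes tested.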

Additional observations from a re-analysis of the deposited data

Results flagged for a closer look

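Over the 6 libraries, 14 measures were examined for a value whose gap to its neighbour takes up most of the range, and 3 had one. By chance about 1 in 20 groups of equally precise values shows such a gap. The libraries differ in depth and the measures share reads, so this rate does not apply to the 14 measures. All 3 lay in the 2 shallowest libraries. The share of Trav11 exon reads that crossed a junction was 78.0% in library 21 (32 of 41 reads) and 57.4% to 61.6% elsewhere. The Trav14 family made 19.7% of the Trav reads of library 21 (12 of 61 reads, Wilson interval 11.6% to 31.3%), where the next library stood at 3.93%. The Trav6 family made 14.6% of those of library 23 (19 of 130 reads, 9.56% to 21.7%), where the next library stood at 8.05%. The part of depth in these values was not tested.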

How the results depend on the processing

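The Trav11 share of Trav reads (median 73.5%) depended most on which reads were counted. With unique reads the median was 0. With exon and intron reads together it was 77.5%, and with exon-exon reads 80.3%, both chosen after seeing the data. It was 75.6% without the dv segments, 73.5% with Trav11d added, and 71.5% to 75.6% when each library in turn was left out. The median Traj18 share was 48.6% to 61.9% when each library was left out. The downstream Traj share had a median of 0 in every such set, since 4 of the 5 libraries with a Traj read were at 0. Summed over libraries it was 18.8%, and 0 without library 19. The count of 1 segment differing between libraries was the same under every alternative run, with an adjusted p for Trav11 of 1.09e-05 with plain library sums and at most 0.0348, without library 23. That count had little room to change. Trav11 was the only segment tested in each run except with a minimum of 60 reads, where 2 were tested. The test of the Trav11 share gave p = 0.260 with unique reads by chi-square and 0.219 by Fisher's exact test. Every 75-base stretch of the Trav11 transcript occurs in another Trav transcript, and 3 of its 2428 exon reads were unique. With so few reads, the test of unique reads cannot decide whether the Trav11 share differs between libraries. With all exon reads, leaving out each library gave 0.0129 to 0.189 by chi-square and 0.0122 to 0.184 by Fisher's exact test. The test of the Traj18 share gave 0.0336 to 0.620 by chi-square when each library was left out, and by Fisher's exact test, chosen after seeing the data, 0.0323 over all libraries and 0.0152 to 0.772 leaving out each. With 0 to 14 Traj reads per library, the Traj shares have little precision. No paired analysis was possible because the libraries carry no replicate number and none could be matched to a label.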
